A study of Mus musculus with 9 samples.

Results

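The miRNAs of the left ventricle of CaNrf2-Low transgenic mice (TG-Low) were compared with those of non-transgenic mice (NTG). The libraries were chosen by their genotype labels alone, which gave 6 of the 9 libraries of the series, 3 TG-Low and 3 NTG, and every mature miRNA row of the count table was compared. Of 621 rows, 509 passed the filter on low counts and were tested. All mice were C57BL/6J males aged 6 months, and the tissue was the left ventricle. TG-Low libraries carry the genotype label CaNrf2-Low, the other transgenic group carries CaNrf2-High (TG-High, 3 libraries), and NTG libraries come from non-transgenic mice. TG-High libraries entered the shared estimate of the spread and 1 later comparison. The labels used here do not give the promoter that drives the transgene, the number of founder lines, or whether each library came from a separate mouse. The p-values therefore measure only the spread between these libraries, which may be technical.

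Nrf2 is the transcription factor made from Nfe2l2, and it binds antioxidant response elements and switches on genes of glutathione synthesis, NADPH supply and detoxification. Its partner Keap1 normally marks it for degradation, and CaNrf2 is known as a constitutively active form that escapes this control. A miRNA is cut from a hairpin whose 5p and 3p arms can each yield a mature strand. The loaded strand pairs with messenger RNAs mainly through its seed, bases 2 to 8, so that miRNAs with the same seed share most target sites.

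The miRNAs that passed the test came from the hairpins of miR-361, miR-671, miR-22, miR-24-1 with miR-3074-1 on its opposite strand, and miR-215. Their mature sequences from RefSeq (GRCm38.p6) are shown with the seed in capitals, so that the arms of each hairpin can be told apart, and miR-194-5p is added as the neighbour of miR-215 and miR-24-2-5p as the copy of miR-24-1-5p.
miR-361-3p: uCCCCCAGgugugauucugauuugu
miR-361-5p: uUAUCAGAaucuccagggguac
miR-671-5p: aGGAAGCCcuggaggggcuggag
miR-671-3p: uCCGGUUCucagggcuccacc
miR-22-3p: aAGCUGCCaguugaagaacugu
miR-22-5p: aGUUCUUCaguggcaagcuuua
miR-24-1-5p: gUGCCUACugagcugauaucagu
miR-24-2-5p: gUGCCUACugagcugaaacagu
miR-215-5p: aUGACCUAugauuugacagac
miR-194-5p: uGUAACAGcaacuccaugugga
No arm of miR-361, miR-671 or miR-22 shares its seed with the other arm of its hairpin. miR-24-1-5p and miR-24-2-5p share the seed UGCCUAC and differ at 5 of 22 positions compared from the 5′ end. miR-215-5p shares its seed UGACCUA with miR-192-5p, from which it differs at 3 of 21 positions.

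Total counts ran from 8.12 to 8.66 M in TG-Low libraries and from 7.17 to 10.1 M in NTG libraries, where M stands for 1e6 counts. In TG-High libraries they ran more widely, from 3.62 M in replicate 2 to 11.7 M in replicate 1. Summed levels of heart cell markers overlapped between TG-Low and NTG, in counts per 1e6 with TMM scaling (CPM). The cardiomyocyte markers summed to 19242 to 23023 CPM in TG-Low libraries and 22191 to 26387 CPM in NTG, the endothelial markers to 141771 to 200396 CPM in TG-Low libraries and 149156 to 190468 CPM in NTG. All 4 cardiomyocyte markers were above 0, but miR-133a-3p, usually a plentiful muscle miRNA, had only 1.10 to 1.70 CPM in TG-Low libraries and 0.822 to 1.55 CPM in NTG. Neural markers were not analysed here, and the liver marker miR-122-5p summed to 3.01 to 6.22 CPM in TG-Low libraries and 2.47 to 7.14 CPM in NTG. miR-1a-3p, let-7a-5p and miR-26a-5p, which are usually plentiful too, had at most 166, 68.0 and 4.63 CPM in TG-Low libraries and 114, 75.9 and 7.95 CPM in NTG libraries. miR-133a-3p and each of these is encoded by more than 1 hairpin, and how reads that match several places were counted is not stated, so levels of such rows, and seed sums that hold them, may be too low. The epithelial markers stood apart in 1 TG-Low library, at 136 CPM in replicate 2 against 25.8 and 46.9 CPM in the others, and at 55.2 to 86.5 CPM in NTG. In bulk tissue, fewer cells of a type and less RNA per cell cannot be told apart.

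7 miRNAs rose in TG-Low ventricles, by 1.53-fold to 2.34-fold. They were the 2 arms of miR-671, the 2 arms of miR-22, and 1 arm each of miR-361, miR-24-1 and miR-3074-1. miR-215-5p alone fell, by 2.12-fold. In edgeR's quasi-likelihood fit, with p-values adjusted by Benjamini and Hochberg's method, these were 8 of 509 tested miRNAs with an adjusted p under 0.05 (1.57%), of which 7 were higher (1.38%) and 1 lower (0.196%). In each of the 8, the 3 TG-Low libraries lay wholly above or wholly below the 3 NTG libraries, which held for 111 of the 509 tested rows (21.8%). At an unadjusted p under 0.05 there were 88 rows (17.3%), 55 higher (10.8%) and 33 lower (6.48%). The median log2 fold change over all tested rows was 0.02. Without TG-Low replicate 1, 0 rows passed in edgeR, with 67 at an unadjusted p under 0.05, and the 8 calls had adjusted p-values of 0.0577 to 0.103. Without TG-Low replicate 2, 18 rows passed, the 8 among them, and only 2 rows, miR-361-3p and miR-215-5p, passed in a fit of the 6 TG-Low and NTG libraries alone, where the other 6 calls had an adjusted p of 0.0761. Over all tested rows, TG-Low replicate 2 had Spearman correlations of 0.973 and 0.969 with TG-Low replicates 0 and 1. With NTG replicates 0, 1 and 2 its values were 0.972, 0.982 and 0.978. TG-Low replicates 0 and 1 stood at 0.984 with each other.

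**Figure D1:**
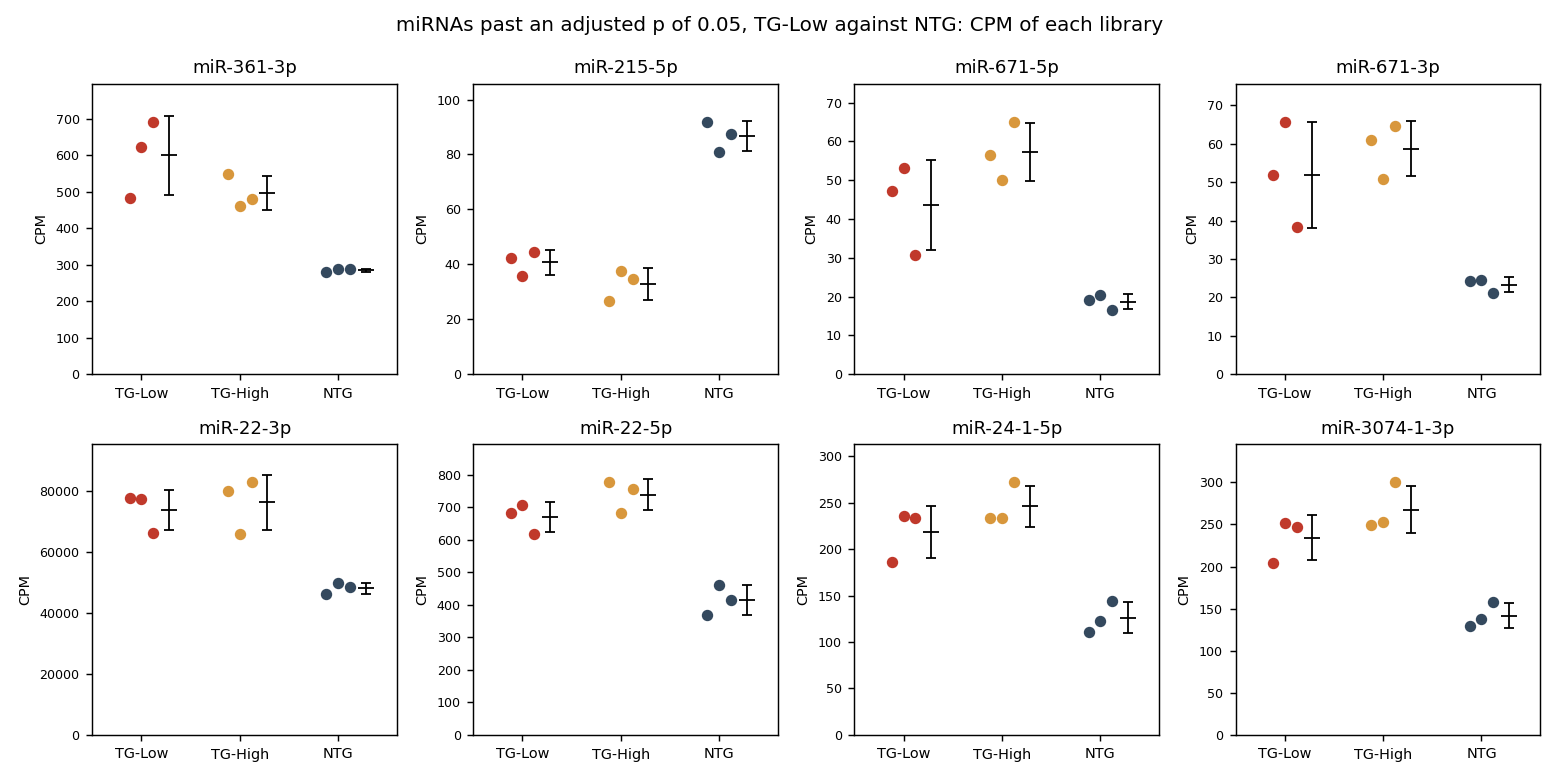
CPM of each library (dots) for the 8 miRNAs past an adjusted p of 0.05 in TG-Low against NTG, with the mean and SD of each group (bars, n = 3) and a linear axis from 0. TG-Low dots lie apart from NTG dots in every panel, above them in 7 panels and below them for miR-215-5p (35.7 to 44.4 CPM in TG-Low, 81.0 to 92.0 CPM in NTG).

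miR-361-3p had the smallest adjusted p. Its hairpin lies in an intron of Chm, on the minus strand at chrX:113074824-113074893 (GRCm38). It measured 482, 623 and 692 CPM in TG-Low libraries and 280.4, 287 and 288 CPM in NTG libraries. The lowest TG-Low library was well above the NTG libraries, which were within a few CPM of each other. The log2 fold change was 1.07 ± 0.15 (SE), with an adjusted p of 0.00884 by edgeR. miR-361-5p, the other arm of the hairpin, measured 157, 194 and 231 CPM in TG-Low and 107, 143 and 146 CPM in NTG. These groups did not overlap either, but the log2 fold change of 0.55 ± 0.17 missed the threshold (edgeR adjusted p = 0.136). The log2 ratio of the 3p to the 5p arm was 1.62, 1.68 and 1.58 in TG-Low libraries and 1.38, 1.00 and 0.98 in NTG libraries. This ratio was higher in all 3 TG-Low libraries, and in 17 of 79 hairpins with both arms at 10 CPM or more the ratio did not overlap between the groups (16 of 75 without hairpins that repeat the same counts).

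miR-671 is cut from an exon of Chpf2, at chr5:24592114-24592211 on the plus strand, where an exon of Smarcd3 lies on the opposite strand. Its 5p arm is known to direct the slicing of the circular RNA Cdr1as. miR-671-5p measured 47.2, 53.1 and 30.6 CPM in TG-Low libraries and 19.2, 20.4 and 16.5 CPM in NTG libraries. TG-Low replicate 2 was the lowest of the TG-Low libraries and still above every NTG library. The log2 fold change was 1.23 ± 0.21 (edgeR adjusted p = 0.0171), the greatest among the 8. miR-671-3p measured 51.8, 65.8 and 38.2 CPM in TG-Low libraries and 24.3, 24.6 and 21.1 CPM in NTG libraries. Again replicate 2 was the lowest TG-Low library, and the groups did not overlap. Its log2 fold change was 1.16 ± 0.20 (edgeR adjusted p = 0.0171), and the ratio of its arms overlapped between the groups.

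miR-22 is an abundant miRNA of heart muscle that is described in mice as promoting cardiomyocyte growth. Its hairpin, at chr11:75463716-75463810 on the plus strand, lies in an exon of the noncoding host gene Mir22hg. An exon of the protein-coding gene Tlcd2 overlaps it on the same strand. miR-22-3p measured 77645, 77307 and 66283 CPM in TG-Low libraries and 46067, 49721 and 48556 CPM in NTG libraries. All TG-Low libraries were higher, with replicate 2 the closest to NTG. The means were 73745 ± 6465 CPM in TG-Low libraries and 48115 ± 1867 CPM in NTG (SD, n = 3 each), a gain of 25631 CPM that was the greatest of all tested rows. The log2 fold change was 0.62 ± 0.11 (edgeR adjusted p = 0.0185), the smallest among the 8 calls. miR-22-5p, the rarer arm, measured 682, 707 and 618 CPM in TG-Low libraries and 369.5, 462 and 414 CPM in NTG libraries. It was higher in every TG-Low library, with a log2 difference of 0.69 ± 0.13 (edgeR adjusted p = 0.0185, or 0.0628 without NTG replicate 0). The log2 ratio of its 3p to its 5p arm overlapped, with a difference of -0.08 between TG-Low and NTG.

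miR-24-1-5p is the 5p arm of a hairpin in an exon of 2010111I01Rik, at chr13:63301208-63301275 on the plus strand. It measured 186, 236 and 233 CPM in TG-Low libraries and 111, 123 and 144 CPM in NTG libraries. The groups were apart, and the log2 fold change was 0.79 ± 0.15 (edgeR adjusted p = 0.0226). The other arm of the hairpin, miR-24-3p, was not among the tested rows. miR-3074-1-3p, counted from a hairpin on the opposite strand of the same locus, measured 204, 252 and 247 CPM in TG-Low libraries and 129, 138 and 158 CPM in NTG libraries, again without overlap. Its log2 fold change was 0.73 ± 0.15 (edgeR adjusted p = 0.0271). Whether counting used strand is not stated in the labels or notes used here, so reads of these 2 rows cannot be told apart. Neither call held without NTG replicate 0 (edgeR adjusted p = 0.0772 for both) or without NTG replicate 1 (0.0701 for miR-24-1-5p and 0.0758 for miR-3074-1-3p). The call of miR-3074-1-3p was also lost without TG-High replicate 0 (0.0525) or TG-High replicate 1 (0.0544), which share the estimate of the spread.

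miR-215-5p was the row that fell. In human cells it is known, with miR-192 and miR-194, as a miRNA induced by p53. Its hairpin, at chr1:185313581-185313692 on the plus strand, lies in an exon of the noncoding gene 2010103J01Rik and opposite an intron of Iars2. It measured 42.3, 35.7 and 44.4 CPM in TG-Low libraries and 92.0, 81.0 and 87.3 CPM in NTG libraries. Every TG-Low library had less than any NTG library, and both groups were tight. The log2 fold change was -1.09 ± 0.17 (edgeR adjusted p = 0.0102). The 3p arm was too rare to test, with counts of 5, 1 and 1 in TG-Low libraries and 9, 8 and 10 in NTG libraries.

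miRNAs of neighbouring hairpins are often cut from 1 transcript, so the neighbours of the called hairpins were read next. Mir194-1 lies 195 bases from Mir215 on chromosome 1, and miR-194-5p, which also comes from Mir194-2 on chromosome 19, measured 6.61, 5.97 and 5.62 CPM in TG-Low libraries and 13.0, 11.2 and 13.7 CPM in NTG libraries. All TG-Low libraries were lower, but the log2 fold change of -1.06 ± 0.28 did not pass (edgeR adjusted p = 0.113). Mir192 lies 115 bases from Mir194-2, and miR-192-5p measured 965, 689.5 and 912 CPM in TG-Low libraries and 1009, 984 and 1171 CPM in NTG libraries. The TG-Low libraries were again the lower ones, by a small margin for replicate 0, and the log2 fold change was -0.30 ± 0.14 (edgeR adjusted p = 0.295). miR-194-2-3p overlapped between the groups, at -0.60 ± 0.35. miR-192-5p makes up most of the counts with the seed UGACCUA. That seed, summed over miR-192-5p and miR-215-5p, measured 1007, 725 and 956 CPM in TG-Low libraries and 1101, 1065 and 1258 CPM in NTG libraries. It was lower in every TG-Low library, at a log2 fold change of -0.37 ± 0.13 that did not pass over the seed groups (edgeR adjusted p = 0.161).

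miR-23b, miR-27b and miR-24-1 form a cluster on chromosome 13, with gaps of 154 and 423 bases between their hairpins, and they are known for roles in blood vessels and in cell survival. All 6 tested rows of this cluster, miR-3074-1-3p included, had a log2 fold change above 0, and 5 of the 6 did not overlap between the groups, all higher, beside 58 of 509 tested rows that were higher without overlap (11.4%) and 268 above 0 (52.7%). miR-24-1-5p and miR-3074-1-3p may hold the same reads. As miR-24-3p was not among the tested rows, miR-24 was read from its 5p arms alone. miR-23b-3p measured 5052, 6363 and 4731 CPM in TG-Low libraries and 3415, 4321 and 3891 CPM in NTG libraries. It was higher in every TG-Low library but did not pass, at 0.47 ± 0.14 (edgeR adjusted p = 0.114). miR-27b-5p had the same log2 fold change and adjusted p, at 55.5 to 59.8 CPM in TG-Low libraries and 39.5 to 44.0 CPM in NTG. miR-27b-3p, the most abundant member, measured 46175, 56671 and 47494 CPM in TG-Low libraries and 39761, 42376 and 44870.4 CPM in NTG libraries. TG-Low libraries were higher by a narrow margin, and the log2 fold change was 0.24 ± 0.10 (edgeR adjusted p = 0.246). In the related cluster of miR-23a, miR-27a and miR-24-2 on chromosome 8, where the gaps are 79 and 56 bases, 4 of 6 rows were above 0 and none was without overlap. miR-24-2-5p, with a row of identical counts for miR-3074-2-3p, measured 2489, 2327 and 2958 CPM in TG-Low libraries and 1648, 1941 and 2336 CPM in NTG libraries. Its lowest TG-Low library was just below the highest NTG library, and it stood at 0.39 ± 0.14 (edgeR adjusted p = 0.176). miR-23a-3p stood at -0.27 ± 0.15 and miR-27a-3p at -0.01 ± 0.15. The difference between the 2 clusters was not tested.

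**Figure D2:**
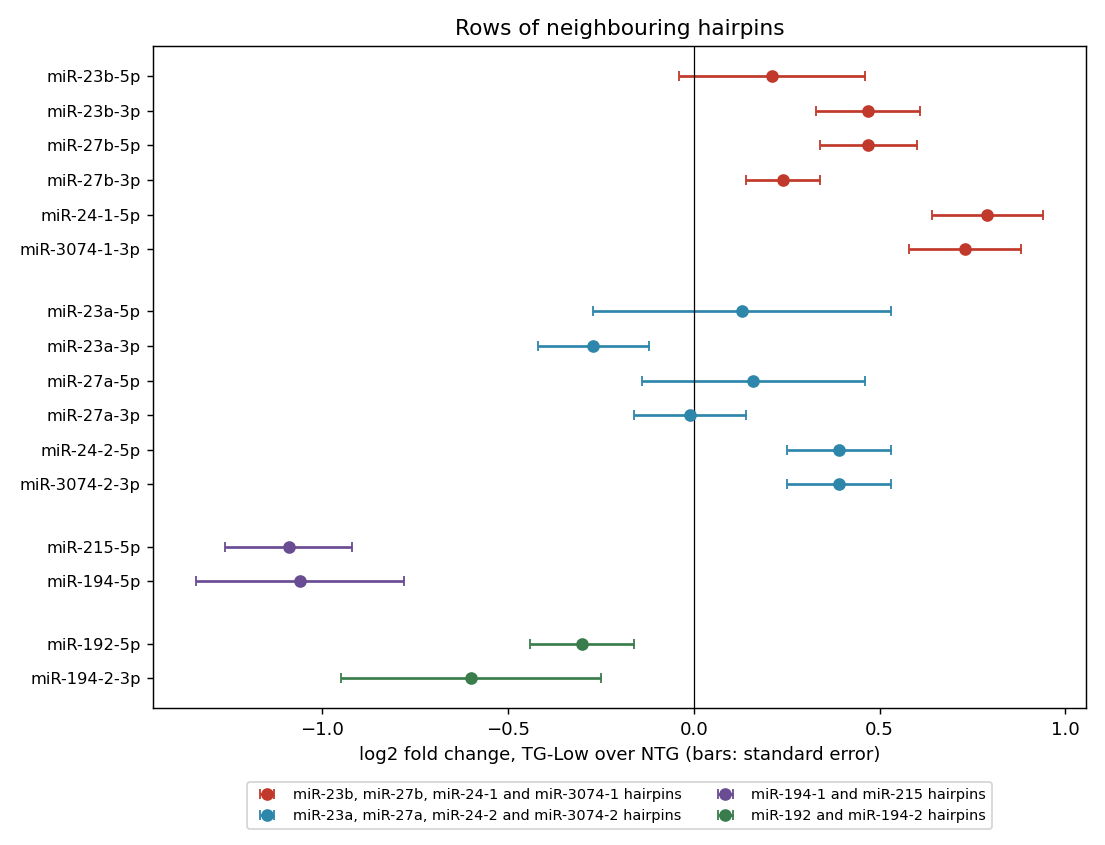
Log2 fold change of TG-Low over NTG (horizontal axis, bars are the standard error of edgeR's fit) for the rows of 4 groups of neighbouring hairpins, coloured by cluster. The 6 rows of the miR-23b cluster lie right of 0, from 0.21 to 0.79, and the rows of the miR-215 and miR-192 clusters lie left of 0, from -0.30 to -1.09.

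Hairpins with 2 tested arms show how far the arms of a hairpin went the same way. The 5p and 3p arms had the same sign in 93 of 149 hairpins, and in 46 of 79 when both arms reached 10 CPM. Across those 79 hairpins the log2 fold changes of the arms had a Pearson r of 0.45 and a Spearman rho of 0.39, values over hairpins of the same libraries that share depth and scaling. Some hairpins lie opposite each other and carry nearly the same counts, such as miR-126a and miR-126b. With 6 such repeats left out, the arms had the same sign in 90 of 143 hairpins, and in 45 of 75 at 10 CPM or more, with a Pearson r of 0.52 and a Spearman rho of 0.45. Of the 149 hairpins, miR-671 and miR-22 had both arms past the threshold.

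Just outside the threshold stood miR-193b-3p, miR-92a-3p, miR-221-3p and miR-155-5p. The sequences of these and of 2 relatives of miR-92a-3p and miR-221-3p are shown with the seed in capitals, since 1 pair shares its seed and the other pair is from the same hairpin.
miR-193b-3p: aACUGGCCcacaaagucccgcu
miR-92a-3p: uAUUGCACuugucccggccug
miR-25-3p: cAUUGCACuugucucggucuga
miR-221-3p: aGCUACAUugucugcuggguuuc
miR-221-5p: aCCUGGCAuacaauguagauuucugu
miR-155-5p: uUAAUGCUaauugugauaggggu
miR-193b-3p, known in mice from brown fat and muscle, measured 26.8, 28.4 and 20.5 CPM in TG-Low libraries and 15.8, 15.1 and 12.9 CPM in NTG libraries. The groups were apart, at a log2 difference of 0.79 ± 0.18 (edgeR adjusted p = 0.0519). miR-92a-3p, a member of the miR-17-92 family that restrains vessel growth, measured 872, 883 and 869 CPM in TG-Low libraries and 1246, 1164 and 1415 CPM in NTG libraries. The TG-Low libraries were nearly identical and all lower, at -0.54 ± 0.12 (edgeR adjusted p = 0.0519). miR-221-3p, known from vessel walls, measured 566, 527 and 749.9 CPM in TG-Low libraries and 996, 946 and 918 CPM in NTG libraries. TG-Low replicate 2 was the closest to NTG, and the log2 fold change was -0.63 ± 0.15 (edgeR adjusted p = 0.0636). miR-155-5p, which immune cells make on activation, measured 219, 169.9 and 208 CPM in TG-Low libraries and 325, 260.1 and 342 CPM in NTG libraries. All TG-Low libraries were lower, at -0.63 ± 0.15 (edgeR adjusted p = 0.0711).

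The other rows among the 12 with the smallest p in each direction had adjusted p-values of 0.102 to 0.114. On the higher side they were let-7i-3p (log2 fold change 0.50), let-7f-1-3p (0.69), miR-29c-5p (0.52) and miR-27b-5p (0.47). Close behind them were miR-23b-3p (0.47) and, at an adjusted p of 0.117, let-7c-1-3p (0.56) and miR-34c-5p (0.84). miR-34c, a target of p53, measured 115, 167 and 103 CPM in TG-Low libraries and 73.2, 94.2 and 47.9 CPM in NTG libraries for its 5p arm. The groups were apart by a narrow margin. On the lower side they were miR-194-5p, given above, miR-224-5p (-0.60), miR-221-5p (-0.67), miR-374b-5p with a row of identical counts for miR-374c-3p (-0.76), let-7j (-0.43), miR-20a-5p (-0.48) and miR-25-3p (-0.48). miR-92a-3p and miR-25-3p share the seed AUUGCAC, and miR-221-3p and miR-222-3p share GCUACAU.

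Size of change and abundance were spread unevenly. Of the tested rows, 19 were at least 2-fold apart, 12 higher and 7 lower, and 4 of them passed the test, namely miR-215-5p, miR-361-3p and the miR-671 arms. The rows that were this far apart without passing had a median of 1.56 CPM and a highest mean of 24.6 CPM, whereas the median of all tested rows was 18.4 CPM. The highest of them, miR-5121, named after its values were seen, had a log2 fold change of -1.26 with overlapping groups. It measured 13.1, 16.2 and 14.1 CPM in TG-Low libraries and 26.5, 62.7 and 14.8 CPM in NTG libraries. NTG replicate 1 was far above the other NTG libraries.

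**Figure D3:**
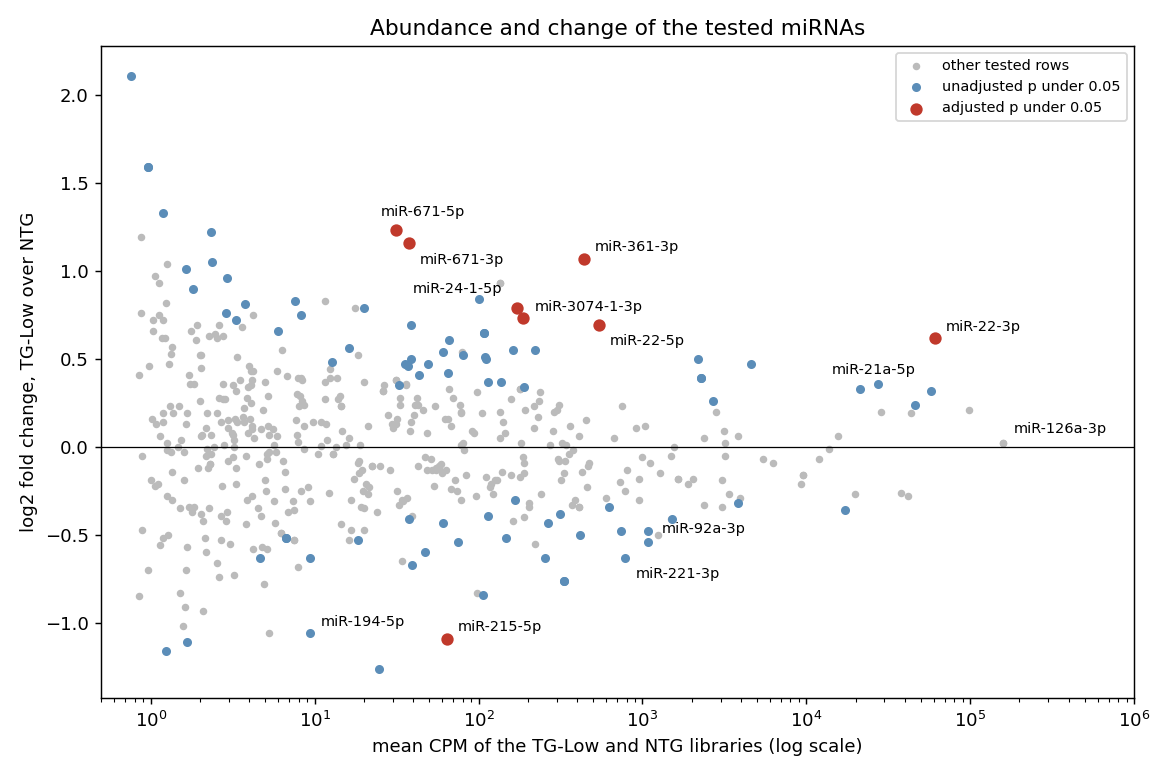
Log2 fold change of TG-Low over NTG against the mean CPM of the 6 libraries (log axis) for the 509 tested rows, with the 8 calls in red and rows at an unadjusted p under 0.05 in blue. Among the calls, miR-671-5p has the greatest log2 fold change (1.23) and miR-22-3p the highest level, and miR-126a-3p, at the far right, is at 0.02.

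Of the most abundant rows, miR-22-3p was the one that passed. miR-126a-3p, the endothelial miRNA cut from Egfl7, averaged 160621 CPM in TG-Low libraries and 157988 CPM in NTG, at a log2 difference of 0.02 (edgeR adjusted p = 0.937). miR-126b-5p, the opposite strand of the same locus, had nearly the same counts. miR-143-3p, known from smooth muscle, had a mean level higher by 14207 CPM and miR-378a-3p, a miRNA of energy metabolism, one higher by 12656 CPM, neither past the threshold (edgeR adjusted p = 0.416 for miR-143-3p and 0.235 for miR-378a-3p). The greatest losses of mean level were differences of -8030.4 CPM for miR-30a-5p, -6809 CPM for miR-30d-5p and -4272 CPM for let-7g-5p, none past the threshold. With the 5 most abundant rows left out, 9 rows passed, among them 7 of the 8 calls, all but miR-22-3p, which was one of the rows left out.

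Muscle miRNAs did not pass the test. miR-208a-3p, cut from an intron of the myosin gene Myh6, measured 2957, 2973 and 2874 CPM in TG-Low libraries and 2444, 2429 and 2475 CPM in NTG libraries. Both groups were tight and apart, yet the log2 fold change was 0.26 ± 0.10 (edgeR adjusted p = 0.232). miR-499-5p, from an intron of Myh7b, measured 17638, 16102 and 20036 CPM in TG-Low libraries and 21328, 19677 and 23855 CPM in NTG libraries, overlapping at -0.27 ± 0.14 (edgeR adjusted p = 0.319). miR-208b-3p varied widely within both groups, from 119.6 to 284 CPM in TG-Low and from 31.4 to 357 CPM in NTG. miR-1a-3p had 112 to 166 CPM in TG-Low libraries and 54.4 to 114 CPM in NTG, a log2 difference of 0.65 with overlap (edgeR adjusted p = 0.235). Of the 14 tested rows of the muscle list, 0 passed, 3 had an unadjusted p under 0.05, all higher, beside 10.8% of all tested rows, and the median was 0.23 against 0.02 for all tested rows. These 3 were miR-208a-3p, miR-1a-3p and miR-1b-5p, and the last 2 have identical counts, so that 2 of 13 rows were at that p when repeats were left out.

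The lists below were chosen with earlier results in view and are given by counts and medians only. Like the muscle list, they hold every tested arm of each listed miRNA. The arm counted need not be the arm that was described. Over all 509 tested rows, 1.38% were called higher and 0.196% lower, 11.4% were higher and 10.4% lower without overlap, and 52.7% had a log2 fold change above 0. Of 14 rows described as responding to Nrf2, 0 passed and 10 were above 0, with a median log2 fold change of 0.26. Of 22 rows described as targeting Nfe2l2 or Keap1, 1 passed, miR-24-1-5p, with a median of 0.01. Of 25 rows of redox and hypoxia, 0 passed, and miR-210-3p, the miRNA of the hypoxia response, measured 112, 115 and 136 CPM in TG-Low libraries and 143, 175 and 203 CPM in NTG libraries. It was lower in every TG-Low library, at -0.52 ± 0.16 (edgeR adjusted p = 0.136). Of 33 rows tied to hypertrophy, 3 rose, both arms of miR-22 and miR-24-1-5p, and the median was 0.09. In that list 9 rows had an unadjusted p under 0.05 on the higher side, beside 10.8% of all tested rows. On the lower side there were 4, miR-221-3p, miR-221-5p, miR-212-5p and miR-30a-3p, beside 6.48% of all tested rows. Without overlap, 9 rows of the list were higher and 6 lower. Of 28 rows tied to matrix and fibrosis, 0 passed and the median was -0.06. miR-21a-5p, which rises in cardiac fibroblasts under stress, is on that list. It measured 25570.2, 21969 and 23965 CPM in TG-Low libraries and 18180.1, 20728 and 17947 CPM in NTG libraries, without overlap, at 0.33 ± 0.11 (edgeR adjusted p = 0.151).

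Of 14 endothelial rows, 0 passed, 3 had an unadjusted p under 0.05, all lower, and 2 were above 0. Over all 509 tested rows, 33 were lower at that p (6.48%) and 268 were above 0 (52.7%). The median was -0.34, and 4 rows were lower without overlap, beside 53 of 509 tested rows that were lower without overlap (10.4%). With 1 row of each pair of near-identical counts, 1 of 12 rows was above 0 and the median was -0.37. The summed level of the defining endothelial markers overlapped, as given above. The miR-17-92 family clusters are known to promote cell proliferation. Of their 18 rows, 0 passed and 5 had an unadjusted p under 0.05, all lower, beside 6.48% of all tested rows. In these clusters 3 rows were above 0, beside 52.7% of all tested rows, and the median was -0.31. The seed AUUGCAC, summed over miR-25-3p, miR-32-5p, miR-363-3p, miR-92a-3p and miR-92b-3p, measured 2013, 2066 and 2249.9 CPM in TG-Low libraries and 2749, 2547 and 3189 CPM in NTG libraries. All TG-Low libraries were lower, at -0.44 ± 0.12 (edgeR adjusted p = 0.0914 over the seed groups). The seed AAAGUGC of miR-17-5p, miR-20a-5p and their relatives stood at -0.42 ± 0.13 (adjusted p = 0.111).

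The let-7 family holds back proliferation, and most of its 5p rows were below 0 and most of its 3p rows above 0. Of 10 rows of 5p arms with let-7j, 8 were below 0 and 6 were lower without overlap, with a median of -0.22. let-7j, which is in both counts, has the seed GAGGUAU and not the GAGGUAG of the other rows. Of 10 rows of 3p arms, 7 were above 0, 3 were higher without overlap and 1, let-7d-3p, was lower without overlap, with a median of 0.18. Over all tested rows, 58 were higher (11.4%) and 53 lower (10.4%) without overlap. let-7d-3p measured 575, 545 and 495 CPM in TG-Low libraries and 656, 607 and 705 CPM in NTG libraries. Over all tested rows, 5p arms had a median of 0.01 and 3p arms a median of 0.05. The abundant 5p seed GAGGUAG, summed over 9 rows, measured 34038, 36725 and 31475 CPM in TG-Low libraries and 42436, 39040.3 and 39151 CPM in NTG libraries. Every TG-Low library was lower, at -0.26 ± 0.10 (edgeR adjusted p = 0.208). No single row of the family passed, and the arm difference was not tested.

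The imprinted Dlk1-Dio3 cluster holds many miRNAs that are cut from 1 long transcript. Of its 51 tested rows, 0 passed and 4 had an unadjusted p under 0.05, all higher, beside 55 of 509 tested rows (10.8%). Rows above 0 numbered 37 of 51, beside 268 of 509 tested rows (52.7%), with a median log2 fold change of 0.23. With repeats of near-identical counts left out, 34 of 46 were above 0. The TG-Low libraries differed among themselves: relative to the NTG mean, the median log2 difference of the cluster was 0.53 in replicate 0, 0.47 in replicate 1 and -0.57 in replicate 2, and 0.16, -0.04 and -0.11 in the NTG libraries. Rows above the NTG mean numbered 48, 47 and 7 of 51 in the TG-Low libraries and 42, 18 and 8 of 51 in the NTG libraries. TG-Low replicate 2 thus stood below both other TG-Low libraries. The erythroid rows also differed among the TG-Low libraries, but not all in 1 order. The defining erythroid markers summed to 926, 1791 and 1651 CPM in TG-Low replicates 0, 1 and 2 and to 2097, 1552 and 2413 CPM in NTG libraries, so that replicate 0 was the lowest TG-Low library. The list median was 0.36, -0.30 and -1.40 in TG-Low replicates 0, 1 and 2, where replicate 2 was the lowest. Of its 7 rows, 4 are 2 pairs of near-identical counts from miR-486a and miR-486b, and miR-486a-5p measured 434, 60.6 and 34.1 CPM in TG-Low libraries and 123, 80.5 and 74.3 CPM in NTG libraries. The part of blood in any result was not tested. No row of the erythroid (7 tested), leukocyte (10), smooth muscle (4), fibroblast (4) or epithelial and liver (7) lists passed. Their medians were -0.34 for the erythroid, -0.09 for the leukocyte, 0.04 for the smooth muscle, 0.13 for the fibroblast and 0.05 for the last of these lists, and with repeats left out the leukocyte median was -0.20. Smooth muscle markers summed to 90162 to 122832 CPM in TG-Low libraries and 80862 to 104250.2 CPM in NTG libraries. Leukocyte markers summed to 1128 to 1439 CPM in TG-Low libraries and 1292 to 1361 CPM in NTG.

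**Figure D4:**
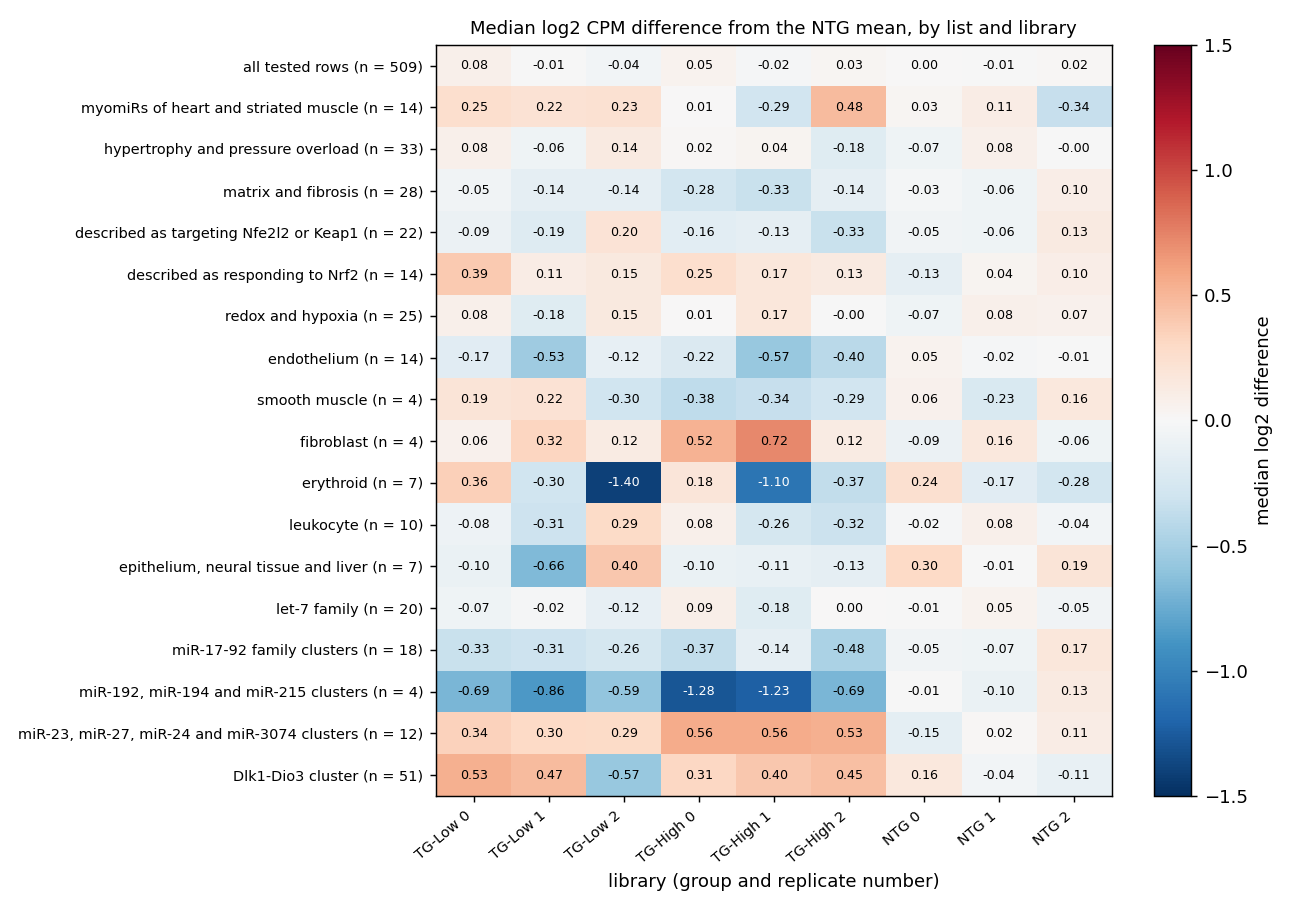
Median log2 CPM difference from the NTG mean for each list (rows, with the number of tested rows) in each library (columns, TG-Low, TG-High and NTG replicates), red above 0 and blue below. TG-Low replicate 2 is at -0.57 for the Dlk1-Dio3 cluster, where replicates 0 and 1 are at 0.53 and 0.47, and the miR-17-92 row is at -0.33, -0.31 and -0.26 in the 3 TG-Low libraries.

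Summing rows by seed asked whether the total count of miRNAs with the same seed differed. A sum follows its most abundant row and does not show whether its members moved together. Of 621 rows, 544 matched a RefSeq mature sequence and fell into 463 seed groups, of which 374 were tested. Rows without a match, among them miR-23b-3p, miR-30d-5p and miR-34c-5p, were left out, so a sum may lack members of its seed. Of these, 5 passed an adjusted p of 0.05 by edgeR (1.34%), each made of 1 row: the 2 arms of miR-22, the 2 arms of miR-671 and miR-361-3p. Of 44 groups with 2 or more tested rows, 0 passed by edgeR and 13 had an unadjusted p under 0.05. Over all 374 tested groups, 73 were at that p (19.5%). The seed GCUACAU of miR-221-3p and miR-222-3p was closest, with 743, 684 and 952 CPM in TG-Low libraries and 1228, 1170.3 and 1139.6 CPM in NTG libraries. All TG-Low libraries were lower, at -0.60 ± 0.14 (edgeR adjusted p = 0.0762). The count of 5 seed groups was 1 without TG-Low replicate 0, 0 without TG-Low replicate 1 (53 at an unadjusted p under 0.05), 26 without TG-Low replicate 2, 10 without NTG replicate 0, 3 without NTG replicate 1 and 1 without NTG replicate 2.

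Very rare rows split the groups in another way. 53 rows had a count of 0 in all 3 TG-Low libraries, while 0 rows had a count of 0 in all 3 NTG libraries. All 53 had been left out by the filter, their NTG counts summed to 2 to 21 per row, and the highest single NTG count among them was 11. miR-1955-5p had NTG counts of 8, 4 and 9, miR-7093-3p 8, 3 and 8, and miR-101b-5p 7, 3 and 8. A count of 0 allows up to 0.366 to 0.392 CPM in a TG-Low library, for counting error only. Of rows whose NTG counts summed to 11 to 21, 43 were above 0 in TG-Low, with a median summed count of 22 over the 3 TG-Low libraries. Only 7 rows were at 0 in 1 or 2 TG-Low libraries, against 16 in NTG libraries. In 35 of the 53 rows all TG-High libraries were at 0 too. How these zeros arose was not tested.

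TG-Low was last set against TG-High, where miR-150-5p, both arms of miR-335, miR-144-3p, miR-451a and miR-499-5p were higher in TG-Low and miR-21a-5p was lower. The sequences of 6 of them are shown with the seed in capitals, since these are the rows by which the transgenic groups differed.
miR-21a-5p: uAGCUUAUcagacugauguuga
miR-335-5p: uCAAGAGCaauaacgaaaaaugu
miR-335-3p: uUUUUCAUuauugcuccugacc
miR-144-3p: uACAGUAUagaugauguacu
miR-451a: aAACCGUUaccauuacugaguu
miR-499-5p: uUAAGACUugcagugauguuu
These were 7 of 509 rows with an adjusted p under 0.05 (1.38%), of which 6 were higher (1.18%) and 1 lower (0.196%), by edgeR. At an unadjusted p under 0.05 there were 41 rows (8.06%), 24 higher (4.72%) and 17 lower (3.34%), and 80 rows did not overlap between the transgenic groups (15.7%), 46 higher (9.04%) and 34 lower (6.68%). miR-150-5p, a lymphocyte miRNA, measured 777, 653 and 611 CPM in TG-Low libraries and 376, 354 and 386 CPM in TG-High libraries. It was apart, at a log2 difference of 0.87 ± 0.13 (edgeR adjusted p = 0.0153). miR-21a-5p measured 38597, 40591 and 34033 CPM in TG-High libraries, above all 3 TG-Low libraries given earlier, at -0.66 ± 0.11 (edgeR adjusted p = 0.0206). miR-499-5p measured 10941, 9887 and 13557 CPM in TG-High libraries, below all TG-Low libraries, at 0.65 ± 0.14 (edgeR adjusted p = 0.0492). The neighbouring erythroid miRNAs stood at 1.33 ± 0.25 for miR-451a and 1.22 ± 0.22 for miR-144-3p (edgeR adjusted p = 0.0254 each), while their summed marker level with miR-144-5p was 926 to 1791 CPM in TG-Low and 516 to 644 CPM in TG-High. The part of blood in these values was not tested. Without TG-High replicate 0, 0 rows passed in edgeR, with 31 at an unadjusted p under 0.05. The count was 2 without TG-High replicate 1 and 4 without TG-High replicate 2. miR-150-5p kept its call in every fit that left out 1 library except the one without TG-High replicate 0 (edgeR adjusted p = 0.0784). miR-21a-5p also lost its call without TG-High replicate 1 (0.0941) or TG-Low replicate 1 (0.0526), and each of the other rows lost it in 5 or 6 of the 9 such fits, with adjusted p-values of up to 0.270.

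None of the 8 rows called against NTG passed in this comparison. Their log2 differences of TG-Low from TG-High ran from -0.38 ± 0.21 for miR-671-5p to 0.31 ± 0.17 for miR-215-5p, with edgeR adjusted p-values of 0.622 to 0.935. A p that misses the threshold does not show that the transgenic groups are alike. miR-22-3p was the closest, at -0.05 ± 0.11.

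**Figure D5:**
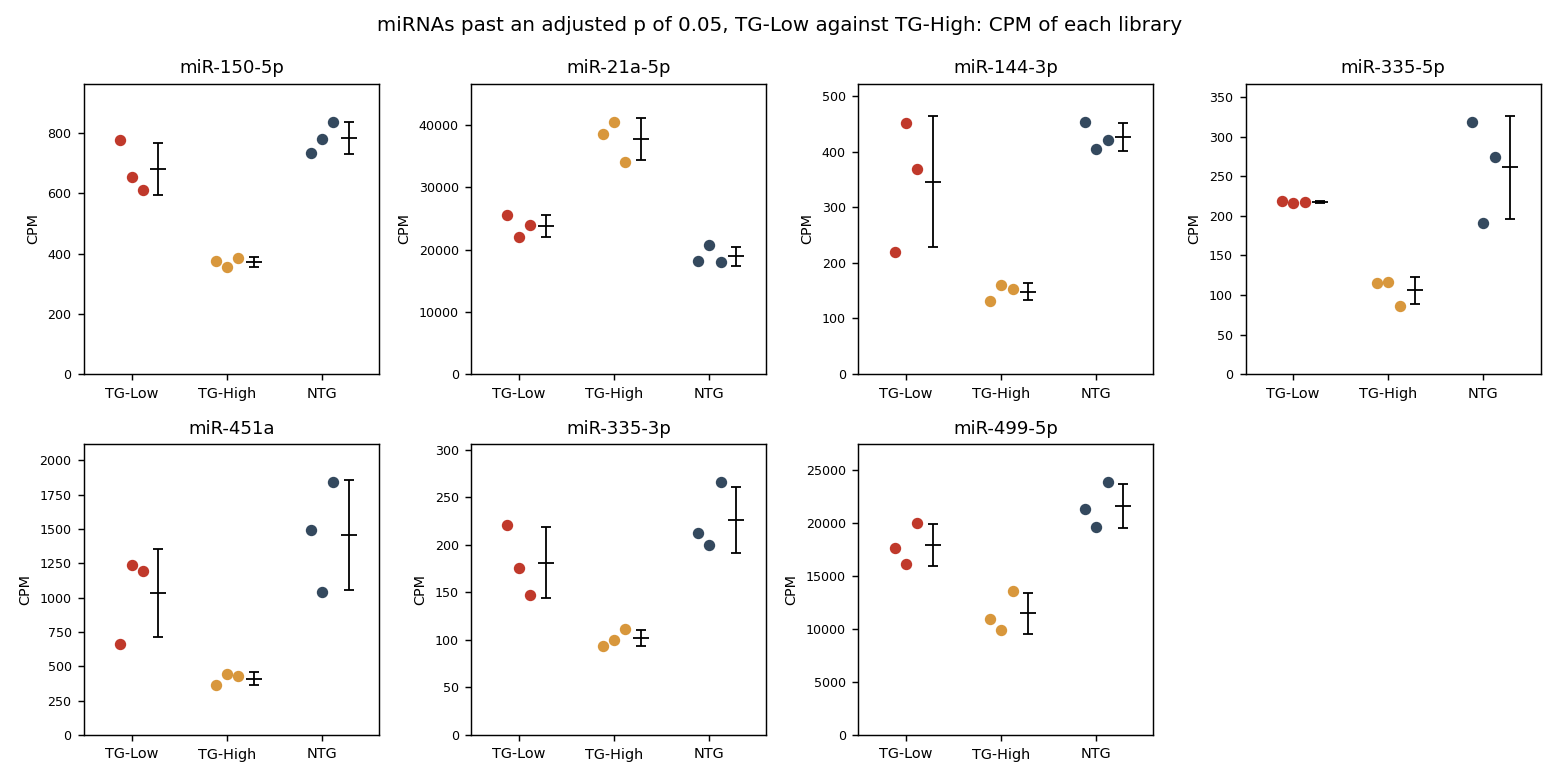
CPM of each library (dots) for the 7 rows past an adjusted p of 0.05 in TG-Low against TG-High, with the mean and SD of each group (bars, n = 3), a linear axis from 0 and the NTG libraries at the right. TG-Low and TG-High dots do not overlap in any panel, for example 611 to 777 CPM in TG-Low and 354 to 386 CPM in TG-High for miR-150-5p.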

How the data were processed

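MicroRNA sequencing libraries of left ventricle were grouped by their genotype labels, and replicate numbers 0, 1 and 2 were taken from the titles. The deposited table holds, per the file headers, a raw read count of each of 621 mature miRNAs in each of 9 libraries, and only these count columns were used. Per the submitters' processing notes, the build was mm10 (GRCm38) and the tools included Novoalign, SAMtools, Trim Galore 0.4.0, bcl2fastq 1.8.4 and DESeq2 1.18.1. The counting tool, the treatment of reads that fit several hairpins and the use of strand were not stated in them.

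Counts were tested with edgeR 4.0.16 (glmQLFit and glmQLFTest, limma 3.58.1, R 4.3.3) in a 3-group model of all 9 libraries, with TMM scaling, filterByExpr at a minimum count of 10 and Benjamini-Hochberg adjustment over all tested rows. CPM are per 1e6 of the scaled library. Log2 fold changes are TG-Low minus NTG unless stated. Rows were matched by name to RefSeq sequences of GRCm38.p6, and counts of rows with the same seed were summed and fitted in the same way. Scripts were tested on simulated data.

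The members and lists were chosen with earlier results of these data known. Named rows were those past the threshold with their other arms and neighbours within 10 kb, the 12 with the smallest p in each direction, the most abundant rows, the greatest gains and losses of mean CPM, fixed cardiac, vascular and blood rows, list rows with an unadjusted p under 0.05, calls against TG-High and up to 5 rows at 0. The text gives a selection of them. Within each group, library counts were further apart than sampling alone allows, at a chi-square per degree of freedom of 44.5 to 455.8, so all were kept as separate libraries. Deviations of same-numbered libraries from their group means had correlations of -0.17 to 0.23 over 9 pairs. Between TG-Low and NTG these were 0.06 to 0.23, and -0.20 to 0.09 for libraries of unlike number. The labels do not say what the numbers mark, so they were not taken as pairs in the main fit. Alternatives were DESeq2 1.42.0, its size factors, limma-voom, no filter, a minimum count of 50, a replicate block, 6 libraries only, removal of abundant or near-identical rows, and leaving out each library.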

Additional observations from a re-analysis of the deposited data

Results flagged for a closer look

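The rows past the threshold between the transgenic groups showed effects that differ between TG-Low and TG-High, by the test of the difference itself in edgeR. The log2 difference of TG-Low from TG-High was 1.33 for miR-451a, 1.22 for miR-144-3p, 1.04 for miR-335-5p, 0.87 for miR-150-5p, 0.83 for miR-335-3p and 0.65 for miR-499-5p, and -0.66 for miR-21a-5p. Each group had 3 libraries, too few for a check of single libraries against their group. miR-335-5p measured 219, 216 and 217 CPM in TG-Low libraries and 115, 116 and 85.9 CPM in TG-High libraries, and miR-335-3p 221, 176 and 147 CPM in TG-Low libraries and 94.0, 100.4 and 111 CPM in TG-High libraries. Both arms come from a hairpin in an intron of the imprinted gene Mest, and the groups did not overlap for either arm.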

How the results depend on the processing

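The 8 calls of TG-Low against NTG became 29 with DESeq2's Wald test, 21 with no filter, 16 with a minimum count of 50 and 2 with 6 libraries only, and 0 to 18 with 1 library left out. The first 3 of these settings kept all 8 rows. The 7 calls of TG-Low against TG-High became 12 with the Wald test, 25 with no filter, 2 with a minimum count of 50 and 3 with limma-voom, and 0 to 10 with 1 library left out. The 5 seed groups became 22 with the Wald test, 11 with no filter and 10 with a minimum count of 50, and 0 to 26 with 1 library left out. With the replicate block there were 11, 6 and 7 calls in these comparisons.

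Over 68 named miRNAs and 1212 values of TG-Low against NTG, 21 lost a call, 48 gained one and 10 changed direction. The changes of direction were in 5 rows that did not pass. miR-126a-3p and miR-126b-5p stood at -0.0015 with 6 libraries only and ran from -0.15 (without TG-Low replicate 2) to 0.15 with 1 library left out, at -0.03 without NTG replicate 0. With 1 library left out, miR-30a-5p ran from -0.43 to 0.04, miR-133a-3p from -0.01 to 0.36 and miR-208b-3p from -0.29 to 1.24, each at the end across 0 without NTG replicate 0, and miR-208b-3p stood at -0.09 without TG-Low replicate 1. All 8 calls were lost without TG-Low replicate 1, where edgeR's adjusted p was 0.0577 to 0.103. The cause was not tested. Between TG-Low and TG-High, 43 of 126 values lost a call. Rows at least 2-fold apart that did not pass had a median of 1.56 CPM, where counts are few.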
